A study of Mus musculus with 2 samples.

Results

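The subject is 7 of the 31053 genes in both count tables, followed over every deposited barcode of a mouse liver single-cell series. They were the long noncoding RNAs Malat1, Neat1 and Kcnq1ot1, the genes Gm26917, Gm42418 and AY036118 from a stretch of ribosomal repeat on chromosome 17 (RefSeq names the Gm42418 locus Rn18s-rs5), and Lars2, which was listed with the repeat genes. The 7 were selected by symbol, with earlier results of these libraries known, as possible signs of nuclei, whole cells and empty droplets, so their levels are given as a description and nothing is tested. The material was dissociated liver of C57BL/6 mice, digested with collagenase and spun through Percoll to keep non-parenchymal cells and hepatocytes of different densities. One group received chow and the other a NASH diet (non-alcoholic steatohepatitis, a diet high in fructose, fat and cholesterol), both for 6.5 weeks. There was 1 library per diet, and the sources used here do not give the age of the mice or how many were pooled. Diet, dissociation and library therefore cannot be told apart in any comparison below, and no replicate spread exists to set a difference against.

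Malat1 and Neat1 are transcribed from neighbouring genes and remain in the nucleus. Malat1 RNA collects at nuclear speckles, where splicing factors are stored, and Neat1 RNA is the scaffold of paraspeckles. Kcnq1ot1 is an imprinted RNA made antisense to Kcnq1 from the paternal chromosome, and it silences neighbouring genes from within the nucleus. Ribosomal RNA is made in the nucleolus as a long precursor that is cut into the mature RNAs, which leave for the cytoplasm, so the mature RNA is abundant in any fragment of cytoplasm while the precursor stays in the nucleus. Lars2 encodes the leucyl-tRNA synthetase of mitochondria, a nuclear-encoded enzyme. A droplet with a nucleus but little cytoplasm, or with cytoplasm but no nucleus, would hold these classes of RNA in different proportions.

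Positions were taken from the GENCODE M21 annotation of GRCm38, matched by gene ID, which is the assembly that the submitters' processing notes call mm10. Malat1 (chr19:5795690-5802672, minus strand) and Neat1 (chr19:5824708-5845478, minus strand) lay 22035 bases apart and were annotated as long intergenic noncoding RNAs. Kcnq1ot1 (chr7:143203458-143296549, minus strand) was annotated as 1 antisense transcript of 93092 bases. Gm26917 (chr17:39843013-39846341, plus strand) lay 616 bases before Gm42418 (chr17:39846958-39848788, plus strand). AY036118 (chr17:39847113-39848035, minus strand) lay wholly inside Gm42418 on the other strand. Lars2 (chr9:123366927-123462666, plus strand) was the protein-coding member, with 9 annotated transcripts.

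The kit named in the labels captures RNA by its poly(A) stretches and reads near the 3′ end, so the annotated 3′ ends are shown first. Each run is the last 50 bases of a transcript on its own strand (the last 30 for Lars2, which end its 3′ untranslated region), and capitals mark the polyadenylation signal AATAAA.
Malat1-201, chr19:5795690-5795739, minus: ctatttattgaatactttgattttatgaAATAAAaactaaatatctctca
Neat1-202, the short form, chr19:5842307-5842356, minus: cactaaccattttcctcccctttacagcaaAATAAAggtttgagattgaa
Neat1-201, the long form, chr19:5824708-5824757, minus: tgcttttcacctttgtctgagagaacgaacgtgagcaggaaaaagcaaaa
Kcnq1ot1-201, chr7:143203458-143203507, minus: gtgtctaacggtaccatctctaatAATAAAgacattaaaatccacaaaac
Gm26917-202, chr17:39846292-39846341, plus: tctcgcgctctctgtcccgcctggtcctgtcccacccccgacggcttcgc
Gm42418-201, chr17:39848739-39848788, plus: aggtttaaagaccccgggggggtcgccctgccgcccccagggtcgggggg
AY036118-201, chr17:39847113-39847162, minus: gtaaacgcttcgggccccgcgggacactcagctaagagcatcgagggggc
Lars2-201, chr9:123462635-123462664, plus: accattgaattAATAAAtgttgtgaaccat

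AATAAA, searched on the transcript strand, was in the last 50 bases of 26.6% of the 141767 annotated transcripts. Of the ends shown, it was in those of Malat1, the short Neat1 form, Kcnq1ot1 and Lars2, and not in those of the 3 repeat genes or the long Neat1 form. Stretches of A inside a transcript can also be captured. The longest run of A was 41 bases in Kcnq1ot1 and 12 in Malat1, against 4 to 7 in the other transcripts shown, and 4.07% of annotated transcripts held a run of 12 or more. Both runs are printed with 12 bases on each side, with the A run in capitals.
Kcnq1ot1-201, chr7:143226933-143226997, minus: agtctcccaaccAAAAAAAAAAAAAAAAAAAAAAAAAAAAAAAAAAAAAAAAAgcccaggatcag
Malat1-201, chr19:5795976-5796011, minus: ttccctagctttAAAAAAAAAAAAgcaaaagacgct

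All 923 bases of AY036118 matched the opposite strand of Gm42418, over 50.4% of its length. The first 30 bases of AY036118 and the same 30 positions of Gm42418 show the pair.
AY036118-201, chr17:39848006-39848035, minus: atcaacgcaagcttatggcccgcacttact
Gm42418-201, chr17:39848006-39848035, plus: agtaagtgcgggccataagcttgcgttgat
Reads from these bases can be assigned to 1 gene or the other by strand alone, and the sources used here do not say whether the authors' counting used strand. The ribosomal repeat also exists in many copies in the genome, so the separate values of Gm26917, Gm42418 and AY036118 are uncertain. No annotated Lars2 transcript aligned to the 3 repeat genes (blastn, expectation at most 1e-05), and Malat1 and Neat1 shared a stretch of 147 bases at 91.8% identity.

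A unique molecular identifier (UMI) marks 1 captured RNA molecule. The chow library held 71635757 UMIs over 7359 barcodes and the NASH library 39440182 over 5881. Mitochondrially encoded RNA made up 34.1% and 38.0% of them, so each level below is in CPM, the UMIs of a transcript per 1000000 nuclear-encoded UMIs, pooled over the barcodes named. Barcodes with at least 3 markers of a non-parenchymal cell type, at least 0.5% of their nuclear-encoded UMIs in those markers and under 2% in hepatocyte markers were gated as that type. All other barcodes were divided into deep (at most 30% mitochondrial and at least 5000 nuclear-encoded UMIs), intermediate (1000 to 5000), low (under 1000), 30 to 80% mitochondrial, and over 80% mitochondrial. Hepatocyte markers took a median of 5.30 to 7.60% of nuclear-encoded UMIs in these 5 classes of the chow library and 6.64 to 10.4% in the NASH library, against 0.124 to 1.04% in the endothelial, Kupffer, leukocyte and mesenchymal gates. The libraries shared 69 barcode sequences. Intervals are exact 95% Poisson or binomial intervals and cover counting error only.

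Over all barcodes, the 7 transcripts made up 0.439% of the chow library's nuclear-encoded UMIs and 1.09% of those of the NASH library. Malat1 stood at 1401 CPM in chow (66125 UMIs, interval 1391 to 1412) and 2650 in the NASH library (64846 UMIs, 2630 to 2671). Neat1 was close in level in the libraries, at 521 and 570 CPM, and Kcnq1ot1 stood at 36.6 and 46.9. These nuclear RNAs thus differed by different amounts between the same libraries. Gm26917 stood at 113 and 253 CPM, Gm42418 at 1904 and 6245, and AY036118 at 72.0 and 447. Lars2 stood at 347 and 666. On the log2 scale with a pseudocount of 10 CPM, AY036118 was 2.48 higher in the NASH library, Gm42418 1.71, Gm26917 1.10, Lars2 0.92, Malat1 0.91, Kcnq1ot1 0.29 and Neat1 0.13. Thus 3 of 7 were at least 2-fold higher, where 1.38% of 11925 genes with at least 50 UMIs were. Their median of 0.92 stood beside a median of 0.13 over those genes.

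The libraries also differed in where these UMIs lay, as the plot of UMI shares by barcode class shows. In chow, deep barcodes held 93.2% of Neat1 UMIs, 91.2% of Kcnq1ot1, 85.2% of Gm26917 and 78.6% of Malat1, beside 88.9% of all nuclear-encoded UMIs. The same class of the NASH library held 59.7%, 59.8%, 37.7% and 46.7% of them, beside 73.5% of all nuclear-encoded UMIs. Lars2 was distributed otherwise. In chow 75.4% of its UMIs and 46.9% of those of Gm42418 came from barcodes over 80% mitochondrial, which held 1.42% of nuclear-encoded UMIs. Those shares in the NASH library were 48.7% and 25.6%, in a class with 1.92% of nuclear-encoded UMIs.

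**Figure D1:**
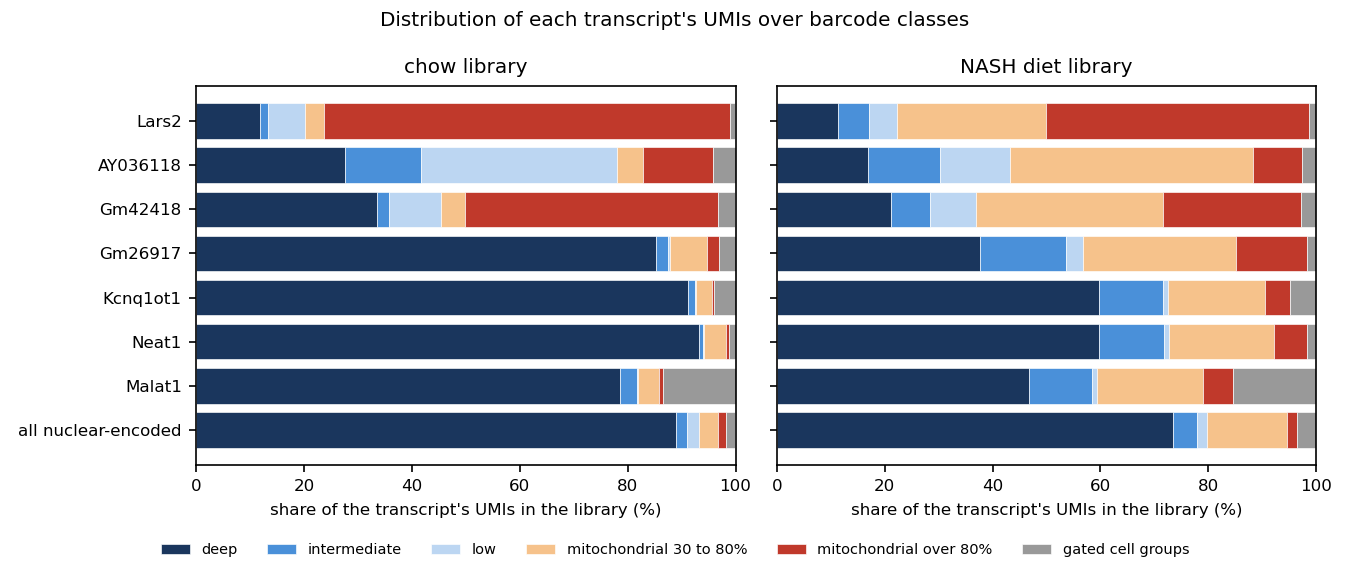
Share of each transcript's UMIs (x axis, %) by barcode class in the chow (left) and NASH diet (right) libraries, with all nuclear-encoded UMIs at the base; gated cell groups are pooled in grey. Malat1, Neat1, Kcnq1ot1 and Gm26917 lay mostly in deep barcodes in chow, while 75.4% of chow Lars2 UMIs lay in barcodes over 80% mitochondrial.

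Deep barcodes numbered 1985 in chow and 1064 in the NASH library. Their Malat1 level stood at 1238 and 1683 CPM, Neat1 at 546 and 462, Kcnq1ot1 at 37.6 and 38.1 and Gm26917 at 108 and 130. The log2 differences, NASH diet over chow, were 0.44, -0.24, 0.02 and 0.24. Malat1, Kcnq1ot1 and Gm26917 were thus closer between the libraries than over all barcodes, while Neat1 turned from 0.13 to -0.24. The other members remained higher in the NASH library: Gm42418 at 716 and 1795 CPM, AY036118 at 22.3 and 102, and Lars2 at 46.1 and 102, with log2 differences of 1.31, 1.80 and 1.0. Again 3 of 7 were at least 2-fold higher, where 1.42% of 10778 genes were. Lars2 lay at the limit itself, and without the barcodes of highest doublet score the count was 2. Single deep barcodes varied more than the pooled levels. The median Malat1 level of a deep barcode was 949 CPM in chow and 940 in the NASH library, the quartiles were 550 and 1543 in chow and 384 and 1650 in the NASH library, and the highest reached 88464 and 132382.

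Most deep barcodes with few mitochondrial UMIs held no Malat1 UMI. In chow, 144 deep barcodes had under 5% mitochondrial UMIs, and 133 of them (92.4%, interval 86.7 to 96.1%) held no Malat1 UMI, against 24 of the 1841 with more (1.30%, 0.837 to 1.93%). Over the 144 together Malat1 stood at 609 CPM and Neat1 at 113, against 1268 and 567 in the 1841, since the other 11 barcodes carried nearly all of these UMIs. The 133 held a median of 10454 nuclear-encoded UMIs and 2462 genes, and the 1841 a median of 21548 and 3959. In these 133 barcodes Neat1 had 4 UMIs (2.26 CPM), Kcnq1ot1 1 UMI and Gm26917 0, while the deep barcodes with at least 5% mitochondrial UMIs had Neat1 at 567, Kcnq1ot1 at 38.8 and Gm26917 at 113 CPM. The 133 were picked for having no Malat1 UMI, and Neat1 varied with Malat1 over deep barcodes, so these low values are a description of the pick. The 24 barcodes without Malat1 at 5% and over, with a median of 7264 nuclear-encoded UMIs, had Neat1 at 70.6, Gm26917 at 22.1 and Kcnq1ot1 at 4.41 CPM. Gm42418, AY036118 and Lars2 were present in the 133. AY036118 stood there at 192 CPM, at 146 in the 24 and at 14.1 over all 1841. Gm42418 stood at 577, 856 and 721 CPM, and Lars2 at 65.4, 110 and 45.2. Of the 144 barcodes 93.1% held an AY036118 UMI, against 58.3% of the 24 and 23.6% of the 1841.

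The NASH library held the same kind of barcode. Of its 89 deep barcodes under 5% mitochondrial, 61 (68.5%, 57.8 to 78.0%) held no Malat1 UMI, against 46 of 975 with more (4.72%, 3.47 to 6.24%). The 61 held a median of 15376 nuclear-encoded UMIs, and in them Neat1 had 5 UMIs, Gm26917 2 and Kcnq1ot1 0. Over all 89 Malat1 stood at 821 CPM and Neat1 at 107, against 1761 and 495 in the 975. AY036118 stood at 327 CPM in the 61, against 393 in the 46 without Malat1 at 5% and over and 82.2 in all 975. The 28 under 5% that held Malat1 had AY036118 at 326 CPM, so low mitochondrial share and a lack of Malat1 each went with a high level. Ribosomal protein mRNAs moved with this split: they took 106203 CPM in the 133 chow barcodes and 75052 in the 61 of the NASH library, against 47280 and 44712 in the deep barcodes with at least 5%, and 49527 and 58778 in those of them without Malat1. Hepatocyte secretory mRNAs (16 genes such as albumin and the apolipoproteins) stood at 66251 and 108435 against 144326 and 157836. In the deep barcodes without Malat1 at 5% and over they stood at 149574 in chow and 112174 in the NASH library, so the libraries differed in this. The part of these differences in the levels of the 7 transcripts was not tested.

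**Figure D2:**
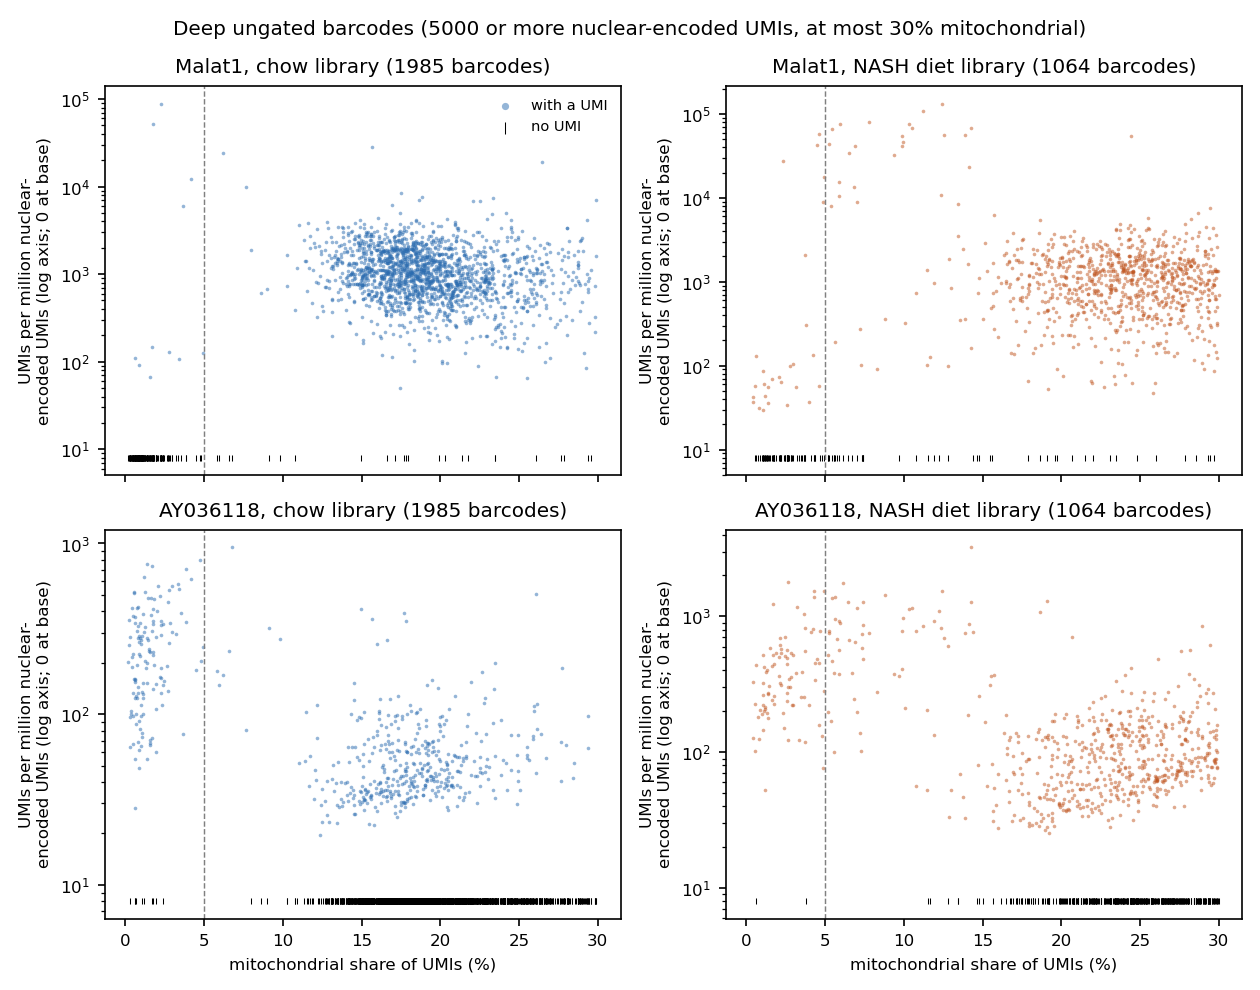
Each point is 1 deep barcode, with its mitochondrial share of UMIs (x axis, %) against its level of Malat1 (top) or AY036118 (bottom) in CPM (log y axis); black ticks at the base are barcodes with no UMI, and the dashed line marks 5%. Left of the line, 133 of 144 chow and 61 of 89 NASH diet barcodes held no Malat1 UMI, while 93.1% and 97.8% held an AY036118 UMI.

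The few deep barcodes under 5% mitochondrial that did hold Malat1 also held UMIs of the other nuclear RNAs. They were picked for holding Malat1, so their levels are a description of the pick. In chow there were 11, with Malat1 at 9665 CPM, Neat1 at 1753, Kcnq1ot1 at 168 and Gm26917 at 210. The 1841 with more mitochondrial UMIs had 1268, 567, 38.8 and 113. A single barcode held 477 of the 1152 Malat1 UMIs and 128 of the 209 Neat1 UMIs of the 11, so their pooled levels rest largely on it. The NASH library had 28, with Malat1 at 2449, Neat1 at 308, Gm26917 at 82.0 and Kcnq1ot1 with 15 UMIs. The 975 NASH deep barcodes with more mitochondrial UMIs had Malat1 at 1761, Neat1 at 495, Gm26917 at 139 and Kcnq1ot1 at 40.7. Unlike in chow, the 28 were thus higher in Malat1 only and lower in Neat1, Gm26917 and Kcnq1ot1. A further 39 NASH deep barcodes with 5 to 10% mitochondrial UMIs had Malat1 at 13165 CPM, Neat1 at 2796, Gm26917 at 1091 and Kcnq1ot1 at 267. Across all deep barcodes, Malat1 and Neat1 levels had a Pearson correlation of 0.81 in chow and 0.73 in the NASH library on the log2 scale, and Spearman's rho was 0.55 and 0.53. Malat1 and mitochondrial share had r of 0.56 and 0.47 but rho of 0.04 and 0.21, and AY036118 and mitochondrial share had r of -0.53 and -0.47 and rho of -0.31 and -0.30. These describe 1985 and 1064 barcodes that share a library.

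Over all barcodes and depths, the 2 kinds of transcript followed the mitochondrial share differently, as the plot of levels by mitochondrial share shows. In chow, Malat1 was lowest at the ends of the range, at 915 CPM under 5% and 612 at 80% and over, with 4903 at 5 to 10% and 3029 at 50 to 80%. Neat1 went from 98.5 CPM under 5% to 1014 at 50 to 80%, and stood at 193 at 80% and over. In the NASH library Malat1 peaked at the same bins, with 10528 CPM at 5 to 10% and 13469 at 50 to 80%, but still stood at 7692 at 80% and over. Lars2 instead went from 53.4 CPM at 10 to 20% to 18376 at 80% and over in chow, and from 113 under 5% to 16894 in the NASH library. Gm42418 went from 773 CPM at 20 to 30% to 62787 in chow and from 1581 under 5% to 83126 in the NASH library. AY036118 had high values at both ends in chow, with 385 CPM under 5%, 17.4 at 20 to 30% and 658 at 80% and over.

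**Figure D3:**
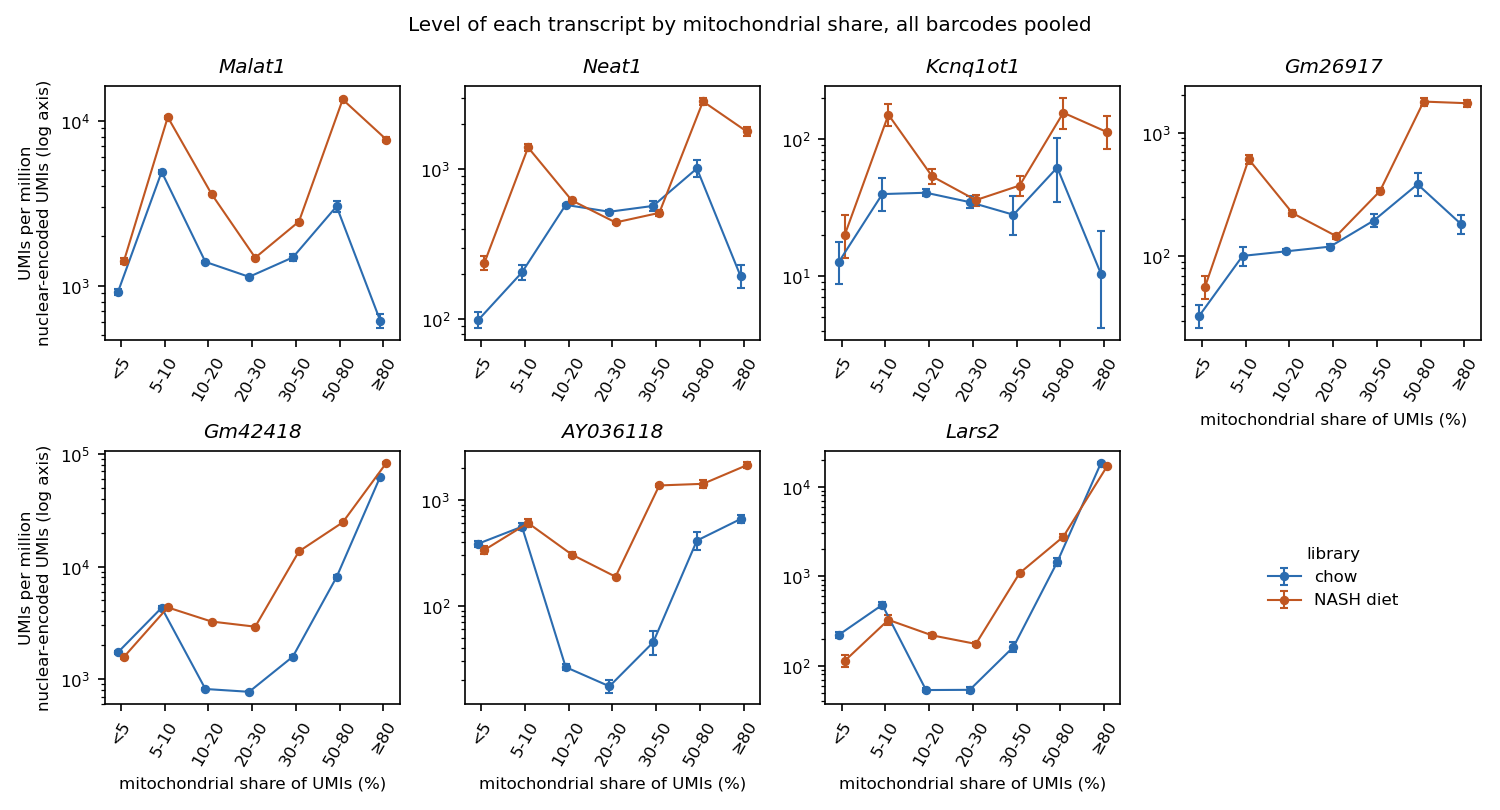
Level of each transcript (CPM, log y axis) by mitochondrial share of UMIs (x axis, %), pooled over all barcodes of a bin; bars are exact 95% Poisson intervals. Lars2 and Gm42418 were highest at 80% and over in both libraries, while Malat1, Neat1, Kcnq1ot1 and Gm26917 had a local peak at 50 to 80% on this scale.

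Total UMIs per barcode gave a division that overlaps with mitochondrial share. The median share was 94.6% and 95.9% in chow barcodes of 2000 to 5000 and 5000 to 10000 UMIs. In the NASH library it was 71.2% and 91.8%, and in the deepest bins 18.3% in chow and 22.5% in the NASH library. Depth and mitochondrial share are not separated in the values that follow. Malat1 peaked at middle depths, with 150 CPM in chow barcodes of under 1000 UMIs, 818 at 1000 to 2000, 3330 at 2000 to 5000, 3007 at 5000 to 10000, 1596 at 10000 to 20000 and 1257 at 20000 and over. The same bins of the NASH library stood at 1358, 2297, 6718, 9627, 2256 and 1555. Neat1 in chow was instead highest in the deepest bin, at 569 CPM against 34.4 in the shallowest, while in the NASH library it peaked with Malat1, at 1818 CPM at 5000 to 10000 UMIs. AY036118 was lower in each deeper bin, from 1098 to 16.3 CPM in chow and from 3638 to 73.7 in the NASH library. Lars2 was highest at 2000 to 5000 UMIs, at 3750 and 3009 CPM, and stood at 42.3 and 86.5 in the deepest bin. Intermediate barcodes (413 in chow and 558 in the NASH library) differed between the libraries in the pooled nuclear RNAs, with Malat1 at 2141 and 7050 CPM, Neat1 at 209 and 1570, Gm26917 at 121 and 912 and Kcnq1ot1 at 21.8 and 126. A minority of barcodes carried these UMIs. Malat1 was found in 13.1% and 31.2% of them and Neat1 in 10.4% and 16.8%, so the median level of both was 0 in each library. Their median mitochondrial share was 6.50% and 17.9%, and its part was not tested.

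Barcodes over 80% mitochondrial numbered 2569 in chow and 1119 in the NASH library, with a median of 214 and 317 nuclear-encoded UMIs. In chow, Lars2 stood there at 18406 CPM (12344 UMIs) against 46.1 in deep barcodes, a log2 ratio of 8.36 and the highest of 10265 genes. Gm42418 (62883 against 716, log2 ratio 6.44) and AY036118 (659 against 22.3, 4.37) ranked next, so 3 of 7 were at least 2-fold higher, where 0.107% of genes were. Malat1 (576 against 1238, -1.09), Neat1 (194 against 546, -1.45) and Kcnq1ot1 (10.4 against 37.6 from 7 UMIs, -1.22) were at least 2-fold lower, as were 1.86% of genes. Gm26917 stood between, at 182 against 108 (0.70). All 7 of 7 in the NASH library were at least 2-fold higher in this class, where 1.99% of 9478 genes were. The log2 ratios were 7.24 for Lars2, 5.53 for Gm42418, 4.25 for AY036118, 3.64 for Gm26917, 2.18 for Malat1, 1.93 for Neat1 and 1.35 for Kcnq1ot1.

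The scale matters for these ratios, since nuclear-encoded RNA is a small share of such barcodes. Per 1000000 UMIs of every kind, Malat1 stood at 27.1 in chow and 484 in the NASH library in this class, below its 1014 and 1323 in deep barcodes, so its NASH diet ratio turned from 2.18 to -1.43 on the log2 scale. Neat1 and Kcnq1ot1 in that library turned likewise, to -1.60 and -1.22, and Gm26917 in chow from 0.70 to -2.41. Lars2 and Gm42418 stayed higher on that scale, with log2 ratios of 4.20 and 2.32 in chow and 3.58 and 1.89 in the NASH library. Per 1000000 mitochondrially encoded UMIs, Gm42418 in chow was nearly level over deep barcodes (3236), those of 30 to 80% (3206) and those over 80% (3105), whereas Lars2 stood at 208, 444 and 909. The same values in the NASH library were 6591, 20499 and 5618 for Gm42418 and 376, 1742 and 1141 for Lars2.

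The other 16 mitochondrial tRNA synthetases stood near the genes at large, whose median ratio was -0.17 in chow and -0.04 in the NASH library. All 16 passed the minimum in chow, with a median log2 ratio of -0.07 over 80% against deep and 0 at least 2-fold higher; in the NASH library 15 passed, with a median of 0.24, 1 at least 2-fold higher and 1 (Iars2) lower. Fars2, Iars2 and Nars2, the 3 with most UMIs, had ratios of -0.05, -0.66 and -0.35 in chow and 0.21, -1.07 and 0.24 in the NASH library. Genes of ribosome synthesis and the nucleolus also stood near all genes, with medians of -0.11 and 0.19 and 0 of 23 at least 2-fold higher in both libraries. Among them Polr1d, an RNA polymerase I subunit, stood at 0.41 in chow and -0.17 in the NASH library, Ncl (nucleolin) at 0.44 and 0.21, and Npm1 (nucleophosmin) at -0.12 and -0.18.

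Some nuclear mRNAs were also higher in the NASH barcodes over 80% when set against nuclear-encoded UMIs. In this comparison 1.99% of all genes tested were at least 2-fold higher in the NASH library and 0.107% in chow. Mlxipl, Nlrp6 and Gcgr, liver mRNAs known for retention in the nucleus, had log2 ratios over deep barcodes of 1.67, 1.74 and 1.29 there, from 129, 108 and 165 UMIs. In chow they stood at -0.45, 0.05 and -0.29. Speckle and splicing factors were at least 2-fold higher in 7 of 23 in the NASH library (median 0.46); in chow 0 of 23 were higher and 2 lower (median -0.24). Of the 3 with most UMIs, Luc7l2, a splicing factor, stood at 1.11 and -1.19, Srsf5 at 0.01 and -0.14 and Rbm39 at 0.26 and -0.45, NASH diet then chow. Paraspeckle proteins, partners of Neat1 RNA, were at least 2-fold higher in 2 of 17 in the NASH library and 0 of 17 in chow. Of 22 other nuclear or imprinted long noncoding RNAs, 5 passed the minimum in the NASH library and 6 in chow, with 0 at least 2-fold higher. Of 5 tested snoRNA host RNAs, 1 was at least 2-fold higher in the NASH library and 0 in chow.

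**Figure D4:**
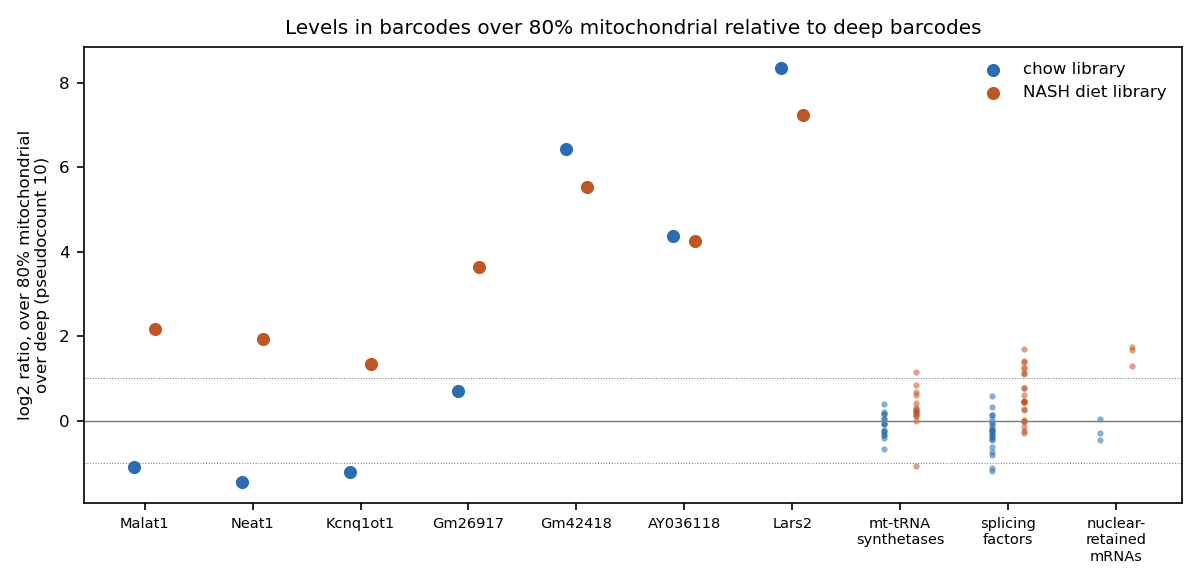
Log2 ratio (y axis, pseudocount 10 CPM) of levels in barcodes over 80% mitochondrial to deep barcodes for the 7 transcripts (large points) and for genes of 3 lists (small points), chow in blue and NASH diet in orange; dotted lines mark 2-fold. Lars2 reached 8.36 and 7.24 while the other mitochondrial tRNA synthetases had medians of -0.07 and 0.24, and Malat1, Neat1 and Kcnq1ot1 lay below 0 in chow and above it in the NASH library, where with UMIs of every kind as the denominator they stood at -1.43, -1.60 and -1.22.

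Between the libraries, the nuclear RNAs of barcodes over 80% mitochondrial differed by far more than those of deep barcodes. Malat1 stood at 7676 CPM in the NASH library (3599 UMIs) and 576 in chow (386 UMIs), a log2 ratio of 3.71 and the highest of 2522 genes (counting interval 3.59 to 3.89 without the pseudocount). Neat1 (3.14), Gm26917 (3.18) and Kcnq1ot1 (2.59, from 53 and 7 UMIs) were also higher, and AY036118 stood at 1.67. Thus 5 of 7 were at least 2-fold higher, where 11.6% of genes were. Gm42418 (0.41) and Lars2 (-0.12) were not. Thinned to 500 nuclear-encoded UMIs each, 63.0% of NASH diet barcodes of this class (174 of 276, with 843 shallower ones left out) held a Malat1 UMI, against 11.3% in chow (27 of 238, with 2331 left out). Unthinned, the shares were 41.9% and 6.50%. Ribosomal protein mRNAs went the other way, with a median of -0.43 over 78 genes.

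In barcodes of 30 to 80% mitochondrial (452 in chow and 2373 in the NASH library) the repeat genes and Lars2 again had the highest ratios of the 7. Over deep barcodes, Lars2 stood at 2.67 in chow and 3.49 in the NASH library, Gm42418 at 1.79 and 3.03 and AY036118 at 1.76 and 3.62. Gm26917 stood at 0.99 and 1.84, and Malat1 at 0.40 and 1.08. At least 2-fold higher were 3 of 7 in chow, where 0.320% of 10301 genes were, and 5 of 7 in the NASH library, where 0.855% of 9819 genes were. These ratios are of pooled levels, and single barcodes went the other way for Malat1. Its median level per barcode in this class was 355 CPM in chow and 0 in the NASH library. The medians of deep barcodes were 949 and 940. Thinned to equal depth, 32.5% and 29.9% of this class held a Malat1 UMI, against 40.2% and 39.4% of deep barcodes. Thinning left out 89 and 359 shallower barcodes of this class.

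Low barcodes, with under 1000 nuclear-encoded UMIs and at most 30% mitochondrial, numbered 1799 in chow and 638 in the NASH library. In chow, Malat1 stood there at 108 CPM (120 UMIs), Neat1 at 19.7 (22 UMIs), Gm26917 at 22.4 (25 UMIs) and Kcnq1ot1 at 2.69 from 3 UMIs (interval 0.554 to 7.86). Against deep barcodes the log2 ratios were -3.41, -4.23, -1.87 and -1.91, and Neat1 and Malat1 were the lowest 2 of 10288 genes. AY036118, Lars2 and Gm42418 stood at the other end, with AY036118 at 1108 CPM (log2 ratio 5.11), Lars2 at 1018 (4.20) and Gm42418 at 7766 (3.42). In this comparison 3 of 7 were at least 2-fold higher, where 3.61% of genes were, and 4 of 7 at least 2-fold lower, where 7.12% were. Ribosomal protein mRNAs were at least 2-fold higher in 35 of 92 genes tested, and hepatocyte secretory mRNAs at least 2-fold lower in 9 of 16.

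The low barcodes of the NASH library held more of the nuclear RNAs. Malat1 stood there at 1406 CPM, Neat1 at 290, Gm26917 at 418 and Kcnq1ot1 at 21.0 from 10 UMIs. Their log2 ratios over deep barcodes were -0.26, -0.66, 1.61 and -0.63, and 35.7% of the Gm26917 UMIs came from 1 barcode. A minority of these low barcodes carried the Malat1 and Neat1 UMIs. Malat1 was found in 26.8% of them and Neat1 in 11.6%, so the median level of both was 0. Thinned to equal depth, 20.2% of NASH low barcodes held a Malat1 UMI, against 39.4% of NASH deep barcodes. AY036118 (4.73), Lars2 (4.02) and Gm42418 (3.92) were the highest 3 of 9484 genes, so 4 of 7 were at least 2-fold higher, where 4.96% were. Between the libraries, Gm26917 (3.72), Malat1 (3.59) and Neat1 (3.33) were among the 7 highest of 3128 genes. Of the 6 members that passed the minimum, 5 were at least 2-fold higher in the NASH library, where 7.54% of genes were, and Kcnq1ot1, with 13 UMIs in all, was left out. Median depth differed little, at 597 nuclear-encoded UMIs in chow and 735 in the NASH library, but the median mitochondrial share was 6.47% and 23.9%, and its part was not tested.

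In most gated cell groups the pooled level of Malat1 was above that of deep barcodes and the pooled level of Neat1 was below. Pooled over barcodes, Malat1 stood at 11184 CPM in chow endothelial barcodes (50 barcodes) and 11904 in those of the NASH library (50), at 7684 and 6383 in Kupffer barcodes (61 and 32), at 9408 and 17235 in other leukocytes (18 and 26) and at 18323 and 9041 in mesenchymal barcodes (10 and 10). The order of the groups depended on pooling. By the median over barcodes the chow groups stood at 12212 CPM in other leukocytes, 11826 in mesenchymal, 10137 in endothelial and 6026 in Kupffer barcodes, while mesenchymal barcodes led the pooled values. The NASH medians were 17314, 6735, 9698 and 0. In the NASH Kupffer gate the median was 0 because 40.6% of its 32 barcodes held a Malat1 UMI, against 86.9% in chow. The median depth of these barcodes was 1403 nuclear-encoded UMIs in the NASH library and 4818 in chow. Thinned to equal depth, 40.6% of NASH and 77.0% of chow Kupffer barcodes held a Malat1 UMI, so the difference remained. A few barcodes carried some of these levels: 1 barcode gave 40.0% of the Malat1 UMIs of NASH diet mesenchymal barcodes and 36.6% of those of Kupffer barcodes. Neat1 stood at 209 to 429 CPM in these groups of both libraries, below its 546 and 462 in deep barcodes. Kcnq1ot1 was at 95.5 and 57.0 in endothelial and 103 and 82.2 in Kupffer barcodes, from 8 to 42 UMIs each. Gm42418 stood between 1574 and 8521 CPM, and Lars2 between 94.0 and 380.

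Red blood cells, which in mice lose their nucleus, held few UMIs of the nuclear RNAs. The erythroid gate held 8 barcodes of the NASH library, with a median of 5636 nuclear-encoded UMIs from 266 genes. Erythroid markers took a median of 90.1% of those UMIs. This share lowers the level of every other transcript in them, also after thinning, so a comparison with other groups is limited. Malat1 had 2 UMIs in them (50.1 CPM), in 2 of 8 barcodes, and Neat1, Kcnq1ot1 and Gm26917 had 0, where the floor of 3 counts is 75.2 CPM and the exact interval reaches 92.5. Gm42418 stood at 3284 CPM, AY036118 at 552 and Lars2 at 150 from 6 UMIs. Unthinned, 96.0% of NASH endothelial barcodes held a Malat1 UMI. After thinning, 91.8% of those and 0 of the 8 erythroid barcodes did, where 3 counts of 8 would be 37.5%. In chow the erythroid gate held 1 barcode.

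**Figure D5:**
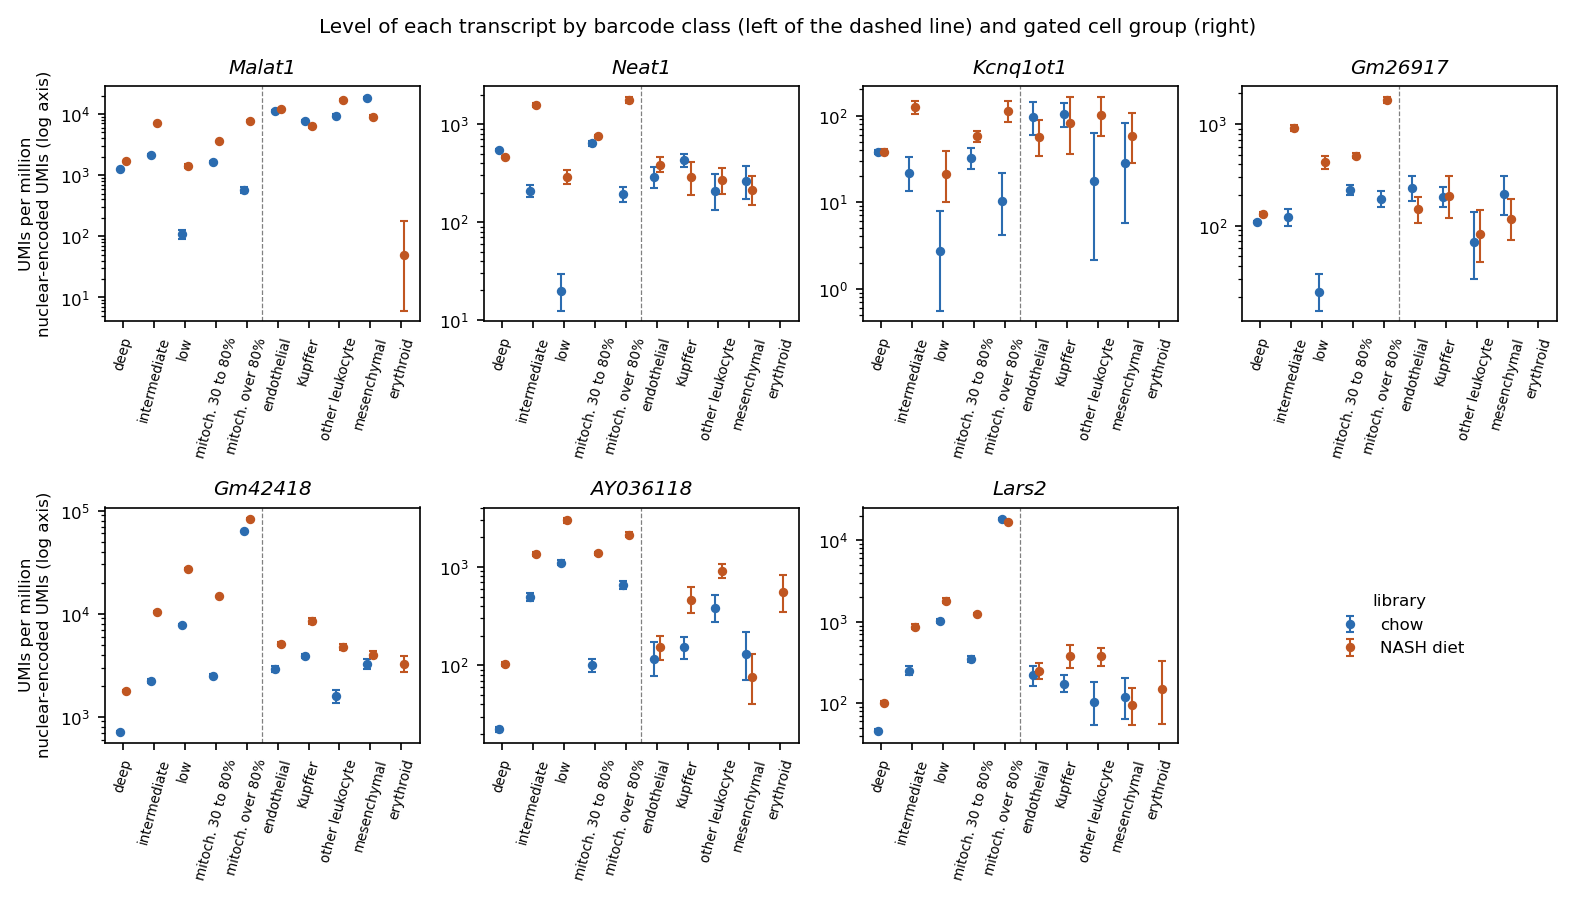
Level of each transcript (CPM, log y axis) in the 5 barcode classes left of the dashed line and in the gated cell groups right of it, chow in blue and NASH diet in orange; bars are exact 95% Poisson intervals, values of 0 and the single chow erythroid barcode are not drawn. Pooled Malat1 stood between 6383 and 18323 in the 4 nucleated cell groups, the lowest being NASH Kupffer barcodes with a median of 0 per barcode. It stood at 50.1 in NASH erythroid barcodes, where erythroid markers took a median of 90.1% of nuclear-encoded UMIs.

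At the upper end of the Malat1 range, ungated barcodes with at least 2% of their nuclear-encoded UMIs in Malat1 numbered 32 in chow (0.443% of ungated barcodes) and 294 in the NASH library (5.11%). Among those with at least 1000 nuclear-encoded UMIs, 19 in chow and 130 in the NASH library, Neat1 stood at 6770 and 9679 CPM, Kcnq1ot1 at 733 and 911 and Gm26917 at 2355 and 5022. Ungated barcodes of the same depth with 0 Malat1 UMIs, 594 in chow and 704 in the NASH library, had Neat1 at 15.1 and 46.2 CPM, Kcnq1ot1 at 1.01 and 4.91 and Gm26917 at 5.71 and 13.5. Speckle and splicing factors together took 7955 and 10704 CPM in the Malat1-rich barcodes and 1098 and 1221 in those without Malat1. The 3 nuclear-retained mRNAs took 1887 and 2840 against 88.0 and 119. Ribosomal protein mRNAs took 21322 and 16781 CPM against 90919 and 72505. The levels of the mitochondrial tRNA synthetases, 234 and 419 against 171 and 196, were less far apart. Both groups were picked by their Malat1 share, and Neat1, Kcnq1ot1 and Gm26917 varied with Malat1, so these contrasts are a description of the pick.

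Ungated barcodes of at least 1000 nuclear-encoded UMIs without any Malat1 UMI differed between the libraries in their mitochondrial share. Of the 594 in chow, 397 had under 10% mitochondrial UMIs and their median was 4.96%. Of the 704 in the NASH library, 152 did and the median was 21.4%. AY036118 stood at 285 and 824 CPM in the 594 and the 704, and Gm42418 at 1251 and 6109. Without the depth limit the order of mitochondrial share was reversed. The median was then 79.3% over 4844 ungated chow barcodes without Malat1 and 37.3% over 3029 of the NASH library.

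The members fell into 2 patterns when levels were followed over 63 bins of library, depth and mitochondrial share that held at least 20 barcodes each. On the log2 scale Malat1 correlated with Neat1 at r = 0.86, Kcnq1ot1 at 0.83 and Gm26917 at 0.77. Gm42418 correlated with Lars2 at 0.97 and AY036118 at 0.80. Across the patterns Malat1 and Lars2 had r = 0.03 and Malat1 and Gm42418 0.14, while Gm26917 lay between, with 0.59 to Gm42418 and 0.51 to Lars2. Of 5000 other nuclear-encoded genes with at least 500 UMIs in each library, the closest to Malat1 were Luc7l2 (0.87), Neat1 and Nktr (0.83). The closest to Kcnq1ot1 were Luc7l2 (0.89), Nktr (0.86) and Malat1, and to Neat1 Luc7l2 (0.89), Egr1 (0.88) and Malat1. Gm26917 was followed by Neat1 (0.85), Mlxipl (0.82) and the splicing factor Rbm25 (0.80). For Gm42418 and Lars2, the closest gene outside the 7 was Zfp395, at 0.59 and 0.53, and for AY036118 it was Ech1, at 0.73. The bins share libraries and depth, so these values are descriptions.

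Genes near Kcnq1ot1 were followed as a list of 10 from its imprinted domain, of which 7 passed the minimum between the libraries. None (0) was at least 2-fold different over all barcodes, where 1.38% of 11925 genes were higher and 0.839% lower by that much. With such shares, a count of 0 in a small list, here or below, says little about the list. The median log2 ratio of the 7 was 0.31, beside 0.29 for Kcnq1ot1 and 0.13 over all genes tested. Slc22a18, a transporter gene imprinted with the domain, stood at 0.32, Cd81 at 0.13 and Nap1l4 at 0.32. In NASH diet barcodes over 80% mitochondrial, where Kcnq1ot1 stood at 1.35 over deep barcodes, Slc22a18 stood at 0.80, Cd81 at -0.92 and Nap1l4 at 0.36, and in chow, where Kcnq1ot1 stood at -1.22, they stood at -0.31, -0.53 and -0.30. Between the libraries over all barcodes, 0 of 23 speckle and splicing factors, 0 of 17 paraspeckle proteins, 0 of 16 mitochondrial and 0 of 19 cytosolic tRNA synthetases, 0 of 24 genes of ribosome synthesis and 0 of 93 ribosomal protein genes were at least 2-fold higher, with medians of 0.29, 0.07, 0.08, 0.01, 0.21 and 0.06.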

How the data were processed

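Single-cell RNA of dissociated mouse liver was measured in 1 chow and 1 NASH library with the 10x Genomics 3′ kit, version 3 per the labels. The deposited matrices hold UMI counts as whole numbers, 1 for each gene in each barcode, not normalized. Per the submitters' processing notes they came from Cell Ranger 3.1.0 with build mm10, and Seurat was used; per the file headers the matrices were written by version 3.0.2. A deposited matrix of both libraries merged was not used, because its barcode endings are not tied to a library by the labels. The number of columns left unmatched was 0.

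Counts were pooled over barcodes and divided by nuclear-encoded UMIs, in CPM (Python 3.11.15, numpy 2.4.6, scipy 1.17.1). Ratios are log2 with a pseudocount of 10 CPM, which understates changes of low genes, and need at least 50 UMIs over both sides. Intervals were exact at 95%, for counting error, and beside a count of 0 the floor is 3 counts. The lowest depth of a barcode was 510 UMIs in chow and 744 in the NASH library. Ratio code was tested on simulated data. Doublets were not removed in the main values. Scrublet (scanpy 1.11.5) called 0 in both libraries, so its threshold did not work, and the 433 and 277 highest scores were left out as an alternative. Sequences were compared with blastn 2.17.0.

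The 7 members and all lists were chosen with earlier results of these data known, and gates and class limits were set after seeing them. A gate was not reached by barcodes with at least 2% hepatocyte markers, among them 21 chow and 120 NASH diet barcodes with Kupffer markers. Named genes were the members, the 3 genes of a list with most UMIs, and for each member the 3 genes of most similar pattern. No test between diets was made, since each diet had 1 library.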

Additional observations from a re-analysis of the deposited data

How the results depend on the processing

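The members' median log2 ratio, NASH diet over chow, was 0.92 and took these values when 1 choice was changed: 0.83 with all UMIs as the denominator, 1.43 as a mean over barcodes, 1.57 with barcodes thinned to 500 nuclear-encoded UMIs, 0.75 with at least 200 genes, 500 UMIs and at most 30% mitochondrial, and 0.89 without the highest doublet scores. The settings chosen after seeing the data gave 0.44 in deep barcodes, 0.47 in deep barcodes of at least 5% mitochondrial and 0.44 in deep barcodes without the highest doublet scores. Thinning also raised the members past 2-fold from 3 to 6. Only the members were thinned, so no share of all genes past 2-fold can be set beside that count. Thinning left out the barcodes under 500 nuclear-encoded UMIs, 2621 in chow and 1203 in the NASH library, and gave every other barcode equal weight. With all UMIs as the denominator, the median ratio of barcodes over 80% mitochondrial to deep ones went from 0.70 to -1.96 in chow and from 3.64 to 0.09 in the NASH library, where Malat1, Neat1 and Kcnq1ot1 turned to -1.43, -1.60 and -1.22. Against barcodes of 10 to 20% mitochondrial, the same denominator turned Malat1 to -2.59, Neat1 to -2.09, Gm26917 to -0.71 and AY036118 to -0.86 in the NASH library. As a mean over barcodes the NASH diet medians were 3.08 over 80% and 1.13 in low barcodes, and the latter was 1.04 without the barcode with most UMIs of each member. The change of denominator follows from its construction, and the cause of the other changes was not tested. The share of chow deep barcodes under 5% mitochondrial with no Malat1 UMI ranged from 91.1% to 94.7% under 4 settings chosen after seeing the data, and that of the NASH library from 63.8% to 71.4%. The merged matrix was not run. No paired analysis was possible because each diet had 1 library and the labels give no replicate numbers. Depth limits Kcnq1ot1 in low barcodes and in those over 80% mitochondrial, where it had 3 to 53 UMIs, and all levels of gated groups, which held 1 to 61 barcodes.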
